A study of Danio rerio with 6 samples.

Results

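Germ plasm is the store of maternal RNA and protein that zebrafish primordial germ cells inherit, and 7 genes of its RNA machinery were followed here: ddx4, dazl, nanos3, dnd1, tdrd7a, piwil1 and ybx1. Every probe set assigned to one of them by current or older symbol was taken, which gave 10 probe sets for all 7 genes, of 15502 probe sets and 8793 named genes on the array. The names nos1 and nanos1 are listed as older aliases of nanos3, but their probe sets carry the identifiers of other genes and were not counted. The arrays covered whole embryos of the TL strain. Of these, 2 arrays held embryos injected with about 2.5 pmol of a fluorescein-tagged morpholino against Spt5 and 2 held embryos injected with about 2.5 pmol of a standard control morpholino with the same tag, all at 21 hours post-fertilization (hpf). The other 2 arrays held untreated embryos, 1 at 21 hpf and 1 at 5 hpf. Spt5 is a subunit of DSIF, which binds RNA polymerase II during pausing and elongation, and a morpholino is an antisense oligonucleotide. Injection was at the start of cleavage, and injected embryos are called Spt5 and control morphants below. Germ cells were not sorted, so each value is that of the whole embryo, in which they are a small minority, and fewer germ cells cannot be told apart from less RNA per germ cell.

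The agent that separates the main groups is printed here 5′ to 3′ as the labels give it.
Spt5 morpholino: gtttctctacagtctgtcgctcctg
Its 25 bases and their reverse complement hold no ATG. The supt5h transcript, which encodes Spt5, had deposited intensities of 173 and 181 on the Spt5 morpholino arrays and 187 and 209 on the control morpholino arrays, against 235 in untreated embryos at 21 hpf. No source used here states where the morpholino binds this transcript, so these values do not check the knockdown.

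The genes encode proteins that act on RNA. ddx4 (Vasa) encodes a DEAD-box RNA helicase of germ granules, tdrd7a a Tudor domain protein of the same granules, and piwil1 (Ziwi) an Argonaute protein that binds piRNAs, the small RNAs that silence transposons in the germ line. nanos3 encodes a zinc finger repressor of translation needed for germ cell survival. dazl and dnd1 encode RNA-binding proteins that keep germ line messages stable and translated. Dnd1 does so by keeping microRNAs off its target messages. ybx1 encodes a Y-box protein that packages messages and represses their translation. Unlike the others it is made in most tissues, and in the early zebrafish embryo its maternal form holds back translation of a Nodal signal. In zebrafish, germ line messages that the egg loaded into the whole embryo are cleared from somatic cells after the zygotic genome becomes active, while germ cells keep them.

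Median deposited intensities were 26.9 and 36.2 in Spt5 morphants, 32.6 and 44.0 in control morphants and 40.3 and 18.3 on the untreated 21 hpf and 5 hpf arrays. The arrays therefore differ in scale, and all differences below are of log2 intensities after quantile normalization over the arrays compared. An intensity below 32, or a normalized log2 below 5, is called dim and taken as not measured. In untreated embryos 7 of 9 markers of later tissues and 4 of 7 markers of the early embryo were measured on this scale, and all of these were higher at the age they mark, 21 hpf for later tissues and 5 hpf for the early embryo. All of them but vox were dim at the other age, so they had to be higher at their own, and the count is a description. The early marker vox was bright at both ages, with deposited intensities of 206.8 at 5 hpf and 135 at 21 hpf. A morpholino difference is called where the adjusted p of limma is under 0.05.

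Untreated embryos at 21 hpf were set against those at 5 hpf to see how the signal of these messages differed with age. The intensities do not tell maternal from newly made message. All 7 genes gave a signal at 5 hpf. At 21 hpf the signal of ddx4, dazl, tdrd7a and piwil1 was below 32 on all 5 arrays, nanos3 was lower but still measured, and ybx1 was higher. With 1 array at each age there is no replicate check and no test. The 2 untreated arrays also differed in the 3′ to 5′ signal ratios of control transcripts, which vary with RNA quality. For actin the ratio was 7.59 at 21 hpf against 1.96 at 5 hpf, and for GAPDH 1.24 against 0.95. What these ratios contribute to the age differences was not tested. Of the 9 probe sets that counted, 6 were at least 2-fold lower at 21 hpf, against 24.3% of the 9294 probe sets that counted on the array. Only 1 of the 9, of ybx1, was at least 2-fold higher, against 23.3% on the array. All probe sets of the 9 but those of nanos3, ybx1 and dnd1 DrAffx.2.5.S1_at were dim at 21 hpf and counted only through the 5 hpf array, so they had to be lower at 21 hpf, and the count is a description. Of the probe sets that counted on the array, 21.5% were bright at 5 hpf and dim at 21 hpf.

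The granule and piRNA genes were dim at 21 hpf whatever the treatment. ddx4 had deposited intensities of 19.6 and 29.2 in Spt5 morphants, 20.9 and 20.2 in control morphants and 13.0 in the untreated 21 hpf embryos, against 164 in untreated embryos at 5 hpf. tdrd7a had 21.6 and 18.6 in Spt5 morphants, 18.2 and 24.2 in control morphants and 17.8 untreated at 21 hpf, against 188 at 5 hpf. The 5 hpf array stood alone above the limit for both genes, and at 21 hpf the deposited values of the morphant groups overlapped within the dim range. For ddx4 this overlap depends on the scaling. Its log2 values normalized over the 4 morphant arrays were 4.66 and 4.80 in Spt5 morphants against 4.47 and 3.95 in control morphants, all dim. After normalization ddx4 was at least 5.83-fold and tdrd7a at least 6.73-fold lower at 21 than at 5 hpf, each a lower limit with the dim value raised to log2 5. Differences as low as these limits were found for 3.82% (ddx4) and 2.89% (tdrd7a) of the probe sets that counted. The limits are set by the 5 hpf signal, so these shares do not rank the falls.

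piwil1 has 2 probe sets, and both pointed the same way between ages. The brighter at 5 hpf gave 4.5 and 8.3 in Spt5 morphants, 4.9 and 11.7 in control morphants and 3.5 in the untreated 21 hpf embryos, against 80.0 at 5 hpf. The dimmer gave 8.6 and 10.6 in Spt5 morphants, 12.5 and 3.3 in control morphants and 12.4 untreated at 21 hpf, against 49.0 at 5 hpf. Neither reached 32 on any array at 21 hpf. The limits were at least 2.89-fold and at least 1.87-fold lower at 21 hpf, and such a limit cannot exceed the distance of the 5 hpf signal from the floor of log2 5.

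dazl behaved like the granule genes. It had 12.9 and 17.4 in Spt5 morphants, 15.6 and 18.4 in control morphants and 15.9 in the untreated 21 hpf embryos, against 110.3 at 5 hpf. All 5 arrays at 21 hpf lay within a narrow dim range, and dazl was at least 3.91-fold lower at 21 than at 5 hpf.

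**Figure D1:**
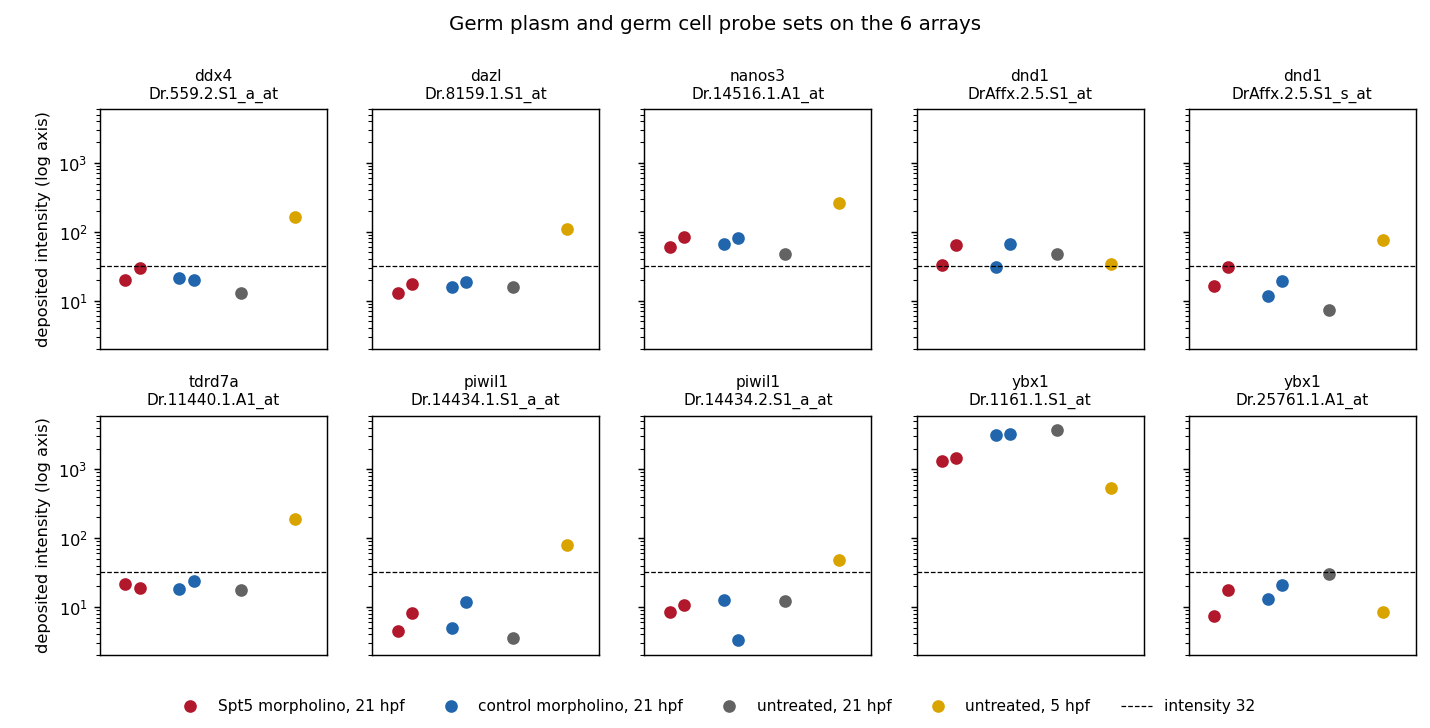
Deposited probe set intensity on a log axis for the 10 probe sets, with a point for each of the 6 arrays coloured by group and a dashed line at 32. For ddx4, dazl, tdrd7a, both piwil1 probe sets and dnd1 DrAffx.2.5.S1_s_at only the 5 hpf array lies above the line, nanos3 is above it on all 6 arrays, and the brighter ybx1 probe set is lowest at 5 hpf and, at 21 hpf, lower on both Spt5 morpholino arrays.

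nanos3 remained measurable at 21 hpf in every group. Its deposited intensities were 60.5 and 84.7 in Spt5 morphants, 67.0 and 81.9 in control morphants and 47.0 in the untreated 21 hpf embryos, against 257 in untreated embryos at 5 hpf. In normalized values it was 9.10-fold lower at 21 hpf than at 5 hpf in untreated embryos, at log2 levels of 5.07 and 8.26. A difference at least as low was found for 1.80% of the probe sets that counted. Those dim at 21 hpf enter this share by a lower limit of their fall, so it does not rank the fall of nanos3. The gene was measured at both ages, although the 21 hpf level lay just above the limit of 5, and the log2 difference was -3.19 after normalization and -2.45 as deposited.

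The 2 probe sets of dnd1 disagreed, and no age difference is given for the gene. DrAffx.2.5.S1_s_at gave 16.1 and 30.5 in Spt5 morphants, 11.5 and 18.9 in control morphants and 7.3 in the untreated 21 hpf embryos, against 75.5 at 5 hpf, a limit of at least 2.74-fold lower at 21 hpf. DrAffx.2.5.S1_at gave 32.6 and 63.9 in Spt5 morphants, 30.3 and 66.4 in control morphants and 48.0 in the untreated 21 hpf embryos, against 33.7 at 5 hpf. Its log2 difference between ages was -0.35 after normalization and 0.51 as deposited, so its direction depends on the scaling. Both probe sets are annotated to the same dnd1 entry. In this array's naming the suffix _s marks probes shared by more than one transcript.

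**Figure D2:**
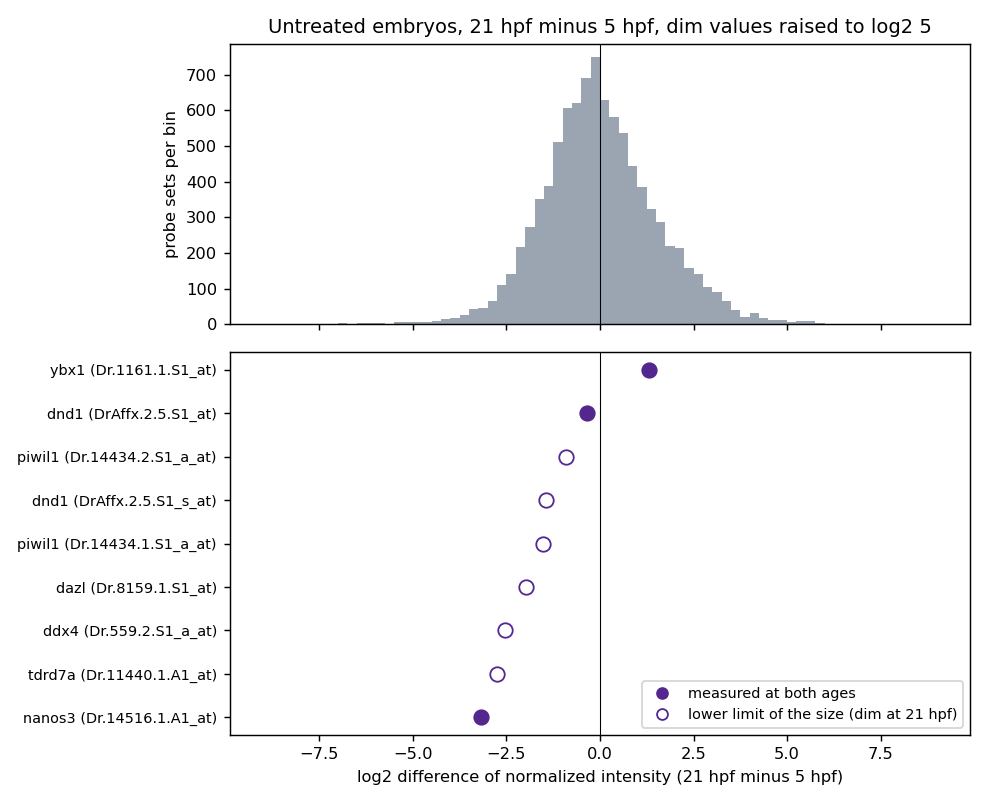
Upper panel, the number of probe sets (of 9294) in each bin of 0.25 in the log2 difference of untreated embryos at 21 hpf minus 5 hpf; lower panel, the same difference for the 9 germ gene probe sets that counted, open where dimness at 21 hpf makes it a lower limit of the size. nanos3, at -3.19, lies in the lower tail of the array, dnd1 DrAffx.2.5.S1_at is near 0, and ybx1, at 1.30, is the single probe set to the right of 0.

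ybx1 ran the other way from the germ granule genes with age. Its bright probe set had an intensity of 3704 in the untreated 21 hpf embryos, against 542 at 5 hpf. The normalized difference was 1.30 on the log2 scale, or 2.47-fold higher at 21 hpf, and 18.4% of the probe sets that counted were at least as much higher. Probe sets dim at 5 hpf enter that share by a lower limit of their rise. As deposited the difference was 2.77, and 2.75 where arrays were centred on the bacterial spike-ins, so the direction held and the size depends on the scaling. The other ybx1 probe set stayed below 32 on all 6 arrays, from 7.3 to 29.9, and was not measured.

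Spt5 morphants were then set against control morphants, the comparison the study was designed around. Only 3 of the 10 probe sets were bright enough to test, those of ybx1, nanos3 and dnd1. Of these, ybx1 fell and the other 2 were not called, where 47.3% of the 8457 tested probe sets on the array were called and 23% were called lower. For ddx4, dazl, tdrd7a and piwil1, and for the remaining dnd1 and ybx1 probe sets, both groups were dim, so no difference could be measured, and the arrays do not show whether these messages changed.

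The ybx1 message fell in Spt5 morphants. Its deposited intensities were 1314 and 1453 in Spt5 morphants, against 3179.9 and 3269 in control morphants. Both Spt5 morphant values are below both control values, and the share of all tested probe sets for which the groups separate was not counted. Normalized log2 levels averaged 10.60 ± 0.12 in Spt5 morphants and 11.51 ± 0.21 in control morphants (SD, n = 2 each). The difference was -0.91 ± 0.14 (SE; 95% interval -1.27 to -0.56; limma adjusted p = 0.00595), a 1.88-fold lower level, and 8.28% of tested probe sets had a difference at least as low. Relative to the median of all tested probe sets the direction is the same under the other scalings: the difference was -1.22 as deposited, where that median was -0.21, and -1.28 with spike-in centring, where it was -0.27, against 0.04 after quantile normalization. The call was lost without the filter on dim probe sets (adjusted p = 0.0705). The 3′ to 5′ signal ratio of the GAPDH control, a sign of RNA integrity and labelling, also differed between these groups, at 1.39 and 1.42 in Spt5 morphants against 1.70 and 1.76 in control morphants, and that of the actin control was 6.94 and 6.99 in Spt5 morphants against 9.91 and 9.61 in control morphants. Their part in the result was not tested.

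Against the lone untreated array at 21 hpf, whose spread was not measured and was taken from the morphant arrays, ybx1 was called lower in Spt5 morphants and was not called in control morphants. The level was lower in Spt5 morphants than in untreated embryos at 21 hpf by a log2 difference of -0.95 ± 0.17 (SE; limma adjusted p = 0.0114), in a comparison that called 43.9% of 8701 probe sets (23% higher and 20.9% lower). Control morphants differed from untreated embryos by -0.02 ± 0.17 (95% interval -0.46 to 0.42; adjusted p = 0.954). Both comparisons share the lone untreated array, and each shares its morphant arrays with the comparison of morpholinos.

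nanos3 was not called between the morpholinos. Its deposited values overlapped, and its normalized log2 values did not, at 6.23 and 6.32 in Spt5 morphants against 6.13 and 6.03 in control morphants. Its normalized log2 level averaged 6.28 ± 0.06 in Spt5 morphants and 6.08 ± 0.07 in control morphants (SD, n = 2 each). The difference was 0.19 ± 0.10 (SE; 95% interval -0.06 to 0.45; limma adjusted p = 0.160), and it was -0.049 as deposited. In both injected groups the level was above the lone untreated array. The difference from untreated embryos was 0.94 ± 0.12 in Spt5 morphants (adjusted p = 0.00468) and 0.75 ± 0.12 in control morphants (adjusted p = 0.0524). Control morphants against untreated embryos gave 0 calls among the 3 germ gene probe sets (1 at an unadjusted p under 0.05, nanos3), where 2.87% of 8701 probe sets were called, 1.75% higher and 1.13% lower. As deposited, the difference between Spt5 morphants and untreated embryos was 0.61 and was not called (adjusted p = 0.322), and both values rest on 1 untreated array.

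The dnd1 probe set DrAffx.2.5.S1_at varied more within groups than between them. Its normalized log2 level averaged 5.64 ± 0.40 in Spt5 morphants and 5.35 ± 0.52 in control morphants (SD, n = 2 each), and the groups overlapped. In each group the array numbered 2 had about the same high value, 63.9 in Spt5 morphants and 66.4 in control morphants, and the array numbered 1 the low one. The difference was 0.29 ± 0.30 (SE; 95% interval -0.48 to 1.06; limma adjusted p = 0.461).

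**Figure D3:**
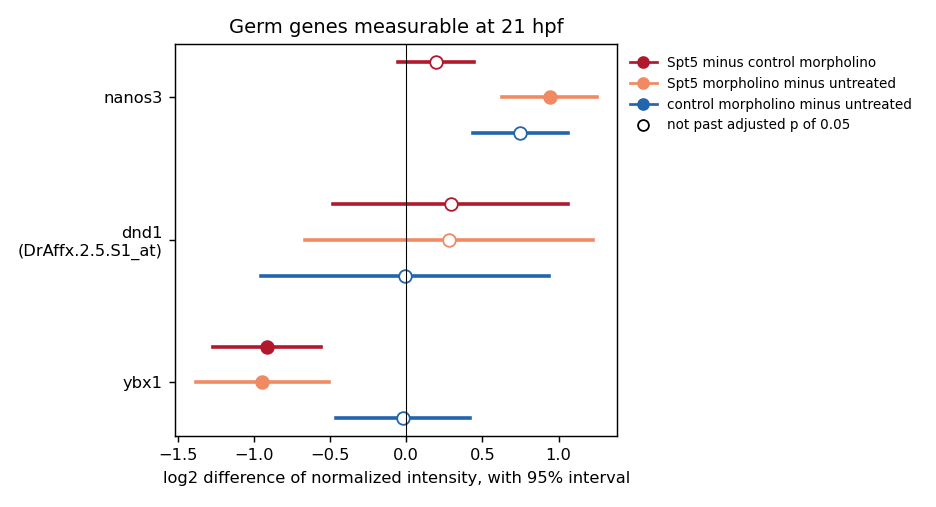
Log2 difference in normalized intensity (points) with the 95% interval of the limma fit (lines) for nanos3, dnd1 and ybx1 in 3 comparisons at 21 hpf; open points did not pass the adjusted p of 0.05. ybx1 lies below 0 in both comparisons of the Spt5 morpholino and at -0.02 for the control morpholino, while nanos3 lies above 0 against the untreated array in both injected groups.

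Genes whose profile over the 6 arrays was nearest to these were found by the distance between log2 profiles, each centred on its own mean, among up to 8056 named probe sets. Distances are in log2 units, and the share of each array in them was not computed. Normalized over all 6 arrays, untreated embryos differed between ages by -3.10 for nanos3 and 1.52 for ybx1. The difference was -0.31 for dnd1 DrAffx.2.5.S1_at, so of these probe sets the untreated arrays lay far apart for nanos3 and ybx1 only. Nearest to ybx1 were tfam (0.14), atf7ip (0.20) and atp5if1a (0.20), and nearest to nanos3 were itprip (0.09), tmem230b (0.25) and ikzf5 (0.30). Nearest to dnd1 DrAffx.2.5.S1_at, which lay close to the limit of measurement, was tmem101 (0.17). For the probe sets dim on all 5 arrays at 21 hpf the profile is mostly unmeasured, and no likeness is given.

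Most other genes of the germ plasm and the piRNA pathway were bright at 5 hpf and dim at 21 hpf in untreated embryos on the normalized scale. This held for 12 of the 17 listed genes that were on the array, of 30 listed, against 21.5% of the probe sets that counted. Among the 12, deposited intensities differ from this for pld6, at 27.1 at 5 hpf, and tdrkh, at 41.3 at 21 hpf. In all, 13 of the 17 were at least 2-fold lower at 21 hpf, against 24.3% of the array, and the median log2 difference was -1.30 against -0.11. Of these 13, 11 counted only through the 5 hpf array and had to be lower, so the counts and the median are descriptions. After normalization the maternal linker histone gene h1m was at least 123-fold lower, with deposited intensities of 12.7 at 21 hpf against 2279 at 5 hpf. buc, whose protein organizes germ plasm in the oocyte, was at least 34.5-fold lower after normalization, with 5.1 against 693 as deposited. asz1, of the piRNA pathway, was at least 9.75-fold lower. The limits and the counts depend on the scaling. brd2a, 2.33-fold lower after normalization, had deposited intensities of 258.7 at 21 hpf against 394.3 at 5 hpf. gtsf1, 6.76-fold lower after normalization, had 502.7 against 1360.3. The single gene at least 2-fold higher at 21 hpf was nanos1, a paralog of nanos3.

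Most of that list was too dim at 21 hpf to compare between morpholinos. Of the 6 genes tested, 1 rose, 2 fell and 3 were not called, with 24.3% of the array called higher and 23% lower. nanos1 had 30.9 and 40.7 in Spt5 morphants, against 57.0 and 72.5 in control morphants, a fall by 0.59 ± 0.09 on the log2 scale (SE; limma adjusted p = 0.00638). gtsf1, which encodes a partner of Piwi proteins, fell by 0.38 ± 0.10 (adjusted p = 0.0257), and igf2bp3, an RNA-binding protein gene, rose by 0.38 ± 0.12 (adjusted p = 0.0471).

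Genes that guide germ cell migration were measurable and did not share a direction with age. All 12 genes on the array, of 16 listed, were tested, and 5 rose in Spt5 morphants, 0 fell and 7 were not called in limma, where 24.3% of the array rose and 23% fell, with a median log2 difference of 0.27 against 0.04 for the array. At an unadjusted p under 0.05, 2 were lower, the cytoskeletal GTPase gene rhoaa at -0.29 (adjusted p = 0.0514) and cxcl12b, a paralog of cxcl12a, at -0.25 (adjusted p = 0.0869). Also past that unadjusted threshold, but not called, was cxcr4b, higher at 0.54 (adjusted p = 0.0616). cxcl12a, a chemokine that attracts germ cells and other migrating cells, had 144 and 187 in Spt5 morphants, against 92.5 and 112.5 in control morphants, and rose by 0.89 ± 0.09 (adjusted p = 0.00223). cdh1, the adhesion molecule E-cadherin, rose by 0.64 ± 0.10 (adjusted p = 0.00712) and pggt1b, a prenyltransferase subunit, by 0.55 ± 0.10 (adjusted p = 0.0111). The others that rose were fdps and cxcr4a, named after their values were seen. These calls and the median are of normalized values and depend on the scaling. As deposited, the groups overlapped for cxcr4a, fdps and pggt1b but not for cxcl12a and cdh1. For cdh1 they barely separated, at 525.1 and 741.1 in Spt5 morphants against 410.6 and 524.5 in control morphants. The share of all tested probe sets for which the groups separate was not counted. Deposited intensities of cxcr4a were 108.5 and 138.2 in Spt5 morphants against 101 and 122.7 in control morphants. With age, cxcl12b was at least 12.3-fold and rhoaa at least 12.0-fold higher at 21 hpf, while hmgcs1, of the mevalonate pathway, was 5.26-fold lower.

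Partners and relatives of Ybx1 in maternal message storage were called about as often as the array. Of 22 genes on the array 15 were tested between the morpholinos, with 4 risen, 4 fallen and 7 not called, where 24.3% of the array rose and 23% fell. Their median log2 difference was -0.03, against 0.04 for the array. The cold shock domain gene carhsp1 rose at least 2.05-fold (adjusted p = 0.00406), being dim on both control morphant arrays after normalization. Its deposited intensities there were 21.1 and 37.5. lin28ab, whose cold shock domain protein blocks maturation of let-7 microRNAs, rose by 1.18 ± 0.17 (adjusted p = 0.00532). igf2bp1, which encodes a message-stabilizing protein, fell at least 1.91-fold (adjusted p = 0.00147) and was dim on both Spt5 morpholino arrays. With age, 12 of the 21 genes that counted were at least 2-fold lower at 21 hpf and 2 at least 2-fold higher, against 24.3% and 23.3% of the array. Of the 12, 8 were dim at 21 hpf and had to be lower. Among them lsm14b was at least 25.5-fold, pabpn1l at least 10.3-fold and cpeb1b at least 8.10-fold lower after normalization. These limits are set by the 5 hpf signal and do not rank the differences. The limits and the counts depend on the scaling. fxr1, 2.28-fold lower after normalization, had deposited intensities of 138.6 at 21 hpf against 234.6 at 5 hpf. lsm14aa, 3.63-fold lower after normalization, had 88.6 against 229.9.

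Genes of deadenylation, message decay and small RNA silencing, the machinery that clears maternal messages, were called no more often than the array. Of 25 tested, 6 rose, 4 fell and 15 were not called, where 24.3% of the array rose and 23% fell. Their median log2 difference was -0.07, against 0.04 for the array. The deadenylase recruiter tob1a rose by 1.51 ± 0.13 (adjusted p = 0.00149), btg2 by 0.89 ± 0.09 (adjusted p = 0.00218) and tob1b by 0.78 ± 0.09 (adjusted p = 0.00317). Those that fell were cnot9, xrn2, dcp2 and drosha, named here after their values were seen. Of these, drosha was dim on both Spt5 morpholino arrays, so its fall is given only as at least 1.09-fold. With age, 11 of 28 genes were at least 2-fold lower at 21 hpf and 5 at least 2-fold higher, against 24.3% and 23.3% of the array. Of the 11, 4 were dim at 21 hpf and had to be lower. These counts are of normalized values and depend on the scaling. btg2 was 2.92-fold lower at 21 hpf after normalization, with deposited intensities of 646.5 at 21 hpf against 809 at 5 hpf. Those of cnot8 were 208.1 against 758.1. After normalization btg4, the maternal deadenylation adaptor, was at least 23.0-fold lower, cnot8 was 6.99-fold lower and zfp36l1a was 5.94-fold higher at 21 hpf.

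**Figure D4:**
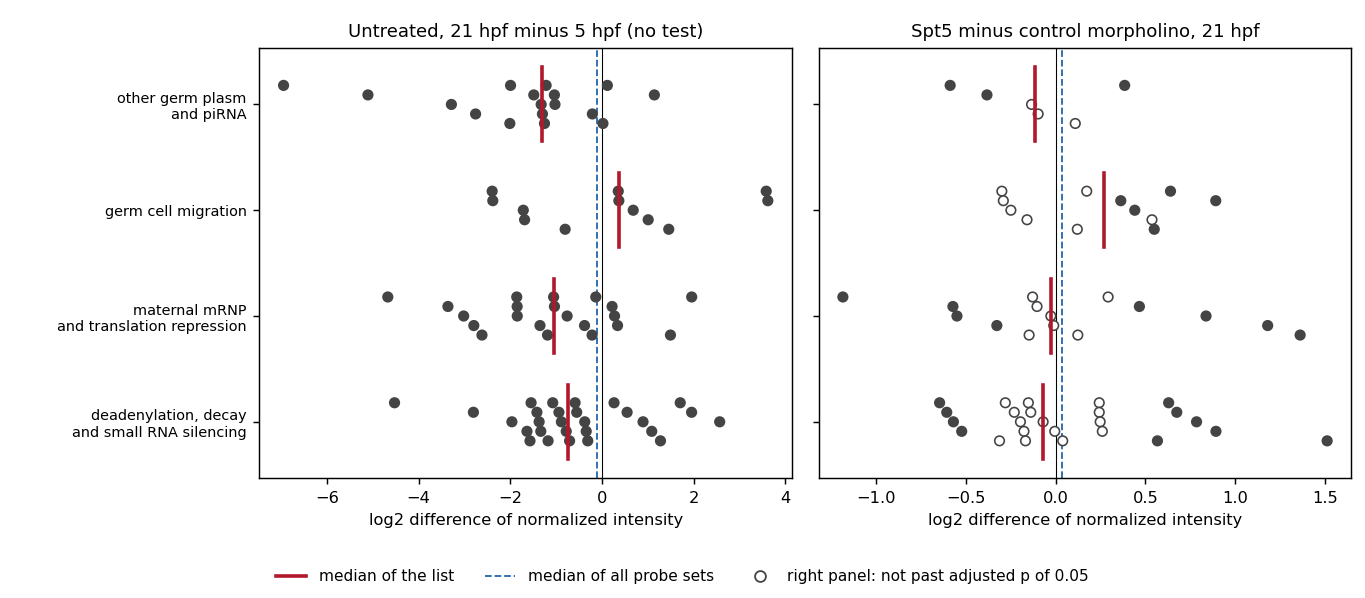
Log2 difference in normalized intensity for the genes of the 4 comparison lists, left for untreated embryos at 21 hpf minus 5 hpf with dim values raised to log2 5, right for Spt5 minus control morpholino, with filled points on the right past the adjusted p of 0.05. Red bars are list medians and dashed lines the median of all probe sets; the germ plasm and piRNA list has its median at -1.30 on the left and -0.12 on the right.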

How the data were processed

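The authors deposited linear intensities per probe set for 6 Affymetrix zebrafish arrays of whole-embryo RNA. GCRMA, per the submitters' processing notes, made them, and no source used here states its version or settings. Of 15617 probe sets, 115 controls were left out. Their log2 was quantile normalized across whichever arrays were compared, namely the 4 morphant arrays, the 5 arrays at 21 hpf or the 2 untreated arrays. A probe set was tested where its log2 value was at least 5 on at least 2 arrays of the fit, and counted for age where it was at least 5 on at least 1. Two-sided p-values came from limma 3.58.1 (lmFit, eBayes; R 4.3.3), adjusted by Benjamini-Hochberg over every tested probe set. The lone untreated array was taken to vary as much as the morphant arrays do. Whether replicates were separate clutches is not in the labels, so p-values reflect array-to-array spread that may be technical. The small number of arrays is what limits precision. Where both arrays of a group were dim, a fold is a lower limit with dim values raised to log2 5.

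Symbols were updated through Entrez identifiers to RefSeq's GRCz12tu gene table for 10718 of 10802 probe sets with 1 symbol. In lists, a gene was represented by its probe set with the highest mean log2. From each list the text names up to 3 called genes with the largest morpholino difference and up to 3 with the largest age difference. The members and lists were chosen with earlier results of these data known. The fitting step was tested on simulated data. No gene coordinates or member sequences were used here.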

Additional observations from a re-analysis of the deposited data

How the results depend on the processing

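Without the filter on dim probe sets 0 of the 10 germ gene probe sets were called between the morpholinos (limma; 2 had an unadjusted p under 0.05), against 1 with it, and 0 between Spt5 morpholino and untreated embryos (4 unadjusted), against 2 with it. That comparison gave 1 call on the values as deposited. Between control morpholino and untreated embryos 0 were called (1 with an unadjusted p under 0.05, nanos3), and 1 with quantile normalization over all 6 arrays or a filter at log2 6. With a filter at log2 6, 3 probe sets rather than 6 were at least 2-fold lower at 21 hpf, the limits being smaller by construction. The comparison lists were counted with age only after quantile normalization of the 2 untreated arrays, so their age counts and folds hold for that scaling. Their calls between the morpholinos were likewise counted only after quantile normalization of the 4 morphant arrays. Leaving out an array gave the same counts of called germ gene probe sets, 1 to 1, 2 to 2 and 0 to 0 in the 3 comparisons, with ybx1 between the morpholinos at -1.07 to -0.75 and adjusted p of 0.00796 to 0.0326.

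Differences that turned sign were none of them called. Between the morpholinos these were nanos3 at -0.049 as deposited and -0.10 with spike-in centring, and dnd1 at -0.028 with spike-in centring and, leaving out an array, -0.067 without control morpholino replicate 1 to 0.66 without control morpholino replicate 2. Between Spt5 morpholino and untreated embryos dnd1 was at -0.073 as deposited and -0.12 with spike-in centring. Between control morpholino and untreated embryos leaving out control morpholino replicates 1 and 2 gave 0.35 and -0.37 for dnd1 and -0.17 and 0.13 for ybx1. The cause was not tested.

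The number of all probe sets called, the background of these counts, was 4001 between the morpholinos, against 1655 as deposited, 874 without the filter, and 2352 and 2531 without Spt5 morpholino replicates 2 and 1. Against untreated embryos it was 3823 for the Spt5 morpholino, against 1525 as deposited, 649 without the filter and 2515 without Spt5 morpholino replicate 2. For the control morpholino it was 250, against 58 as deposited, 0 without the filter (2013 with an unadjusted p under 0.05), 490 with the filter at log2 6 and 2 to 10 with any morpholino array left out. Same-numbered morpholino arrays deviated together with a correlation of 0.25 over 8457 probe sets. The labels do not say that a number marks a shared batch. With the replicate number as a block 1 germ gene probe set was called, ybx1, and 4439 probe sets in all. dnd1 then had the same difference of 0.29 with an adjusted p of 0.0598, against 0.461 without the block.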

Other observations

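Among the dim germ gene probe sets, 2 had their highest deposited intensities at 21 hpf on an Spt5 morpholino array and their lowest on the untreated array. ddx4 had 19.6 and 29.2 in Spt5 morphants and 20.9 and 20.2 in control morphants, against 13.0 in untreated embryos. dnd1 DrAffx.2.5.S1_s_at had 16.1 and 30.5 in Spt5 morphants and 11.5 and 18.9 in control morphants, against 7.3 in untreated embryos. All of these lie below 32, and the 2 probe sets were picked by the order of these values, so the order is a description. As deposited, dazl, tdrd7a and both piwil1 probe sets were highest at 21 hpf on a control morpholino array, and the dim ybx1 probe set on the untreated array. The order depends on the scaling. After normalization over the 5 arrays at 21 hpf, tdrd7a too was highest on an Spt5 morpholino array and lowest on the untreated array. Its log2 values were 4.83 and 4.20 in Spt5 morphants, 4.32 and 4.25 in control morphants and 3.97 in untreated embryos. Fitted without the filter, the log2 differences of ddx4 and dnd1 DrAffx.2.5.S1_s_at between Spt5 and control morpholino were 0.52 and 0.87. Neither was called, with limma adjusted p of 0.239 and 0.112.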
